A study of Mus musculus with 18 samples.

Results

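The nuclear-encoded subunits of the respiratory chain were followed through one step of thymocyte maturation in wild-type mice and in mice lacking a component of the linear ubiquitin chain assembly complex (LUBAC). Members were chosen by symbol (Ndufa, Ndufb, Ndufc, Ndufs or Ndufv and a digit, the 4 Sdh subunits, Uqcr, and Cox4 to Cox8), as protein-coding genes with 0.5 CPM (counts scaled to a common library size) or more in 3 or more samples. Of 73 genes with such a symbol 69 were protein-coding and 63 passed the expression filter, among 12798 genes tested. The rule itself used no difference between groups, although the members were chosen with earlier results of these data known. By complex, 37 members belonged to complex I, 4 to complex II, 7 to complex III and 15 to complex IV.

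RNA was sequenced from CD69+ thymocytes sorted by surface MHC I into a low and a high fraction, both taken from each of 3 wild-type (WT), 3 Hoil and 3 Sharpin mice, giving 18 libraries. WT was C57BL/6. Hoil denotes Hoil ΔCd4, in which a Cd4-Cre transgene deleted the floxed promoter and exons 1 and 2 of Rbck1 (encoding HOIL-1) in the T lineage from the double-positive stage on. Sharpin denotes Sharpin cpdm, a spontaneous mutation present in every cell, from C57BL/Ka mice crossed 2 times to C57BL/6, so that background and mutation cannot be told apart. The sort removed dead cells and cells bearing the γδTCR or markers of myeloid, B, NK, MHC II-expressing and CD25+ or CD44+ cells, and the ages of the mice are not given in the sources used here.

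The respiratory chain of the inner mitochondrial membrane passes electrons from NADH through complex I, or from succinate through complex II, to ubiquinone, then through complex III and cytochrome c to oxygen at complex IV. Complexes I, III and IV pump protons, and the gradient drives ATP synthase. Apart from a small group of subunits encoded by mitochondrial DNA, the subunits are made from nuclear genes, and several complex IV subunits exist as isoforms used in particular tissues or under low oxygen. Immature thymocytes mature from double-positive (DP) to single-positive (SP) cells after positive selection, with rising surface MHC I.

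Libraries held 10577966 to 16266128 counts in genes. Rbck1 was 217 to 268 CPM in WT and Sharpin libraries and 0.271 to 0.779 CPM in Hoil low-fraction libraries, with 3.72, 8.94 and 4.51 CPM in Hoil high-fraction libraries of mice 1, 2 and 3. Sharpin transcripts, which the cpdm mutation does not abolish, were 66.4 to 77.9 CPM in Sharpin libraries against 85.9 to 97.3 CPM in WT. H2-K1, an MHC I heavy chain gene, was 157 to 232 CPM in every low-fraction library and 1725 to 2118 CPM in every high-fraction library. The 8 thymocyte markers summed to 4072 to 6246 CPM, whereas the 6 B cell, 7 myeloid and dendritic and 6 thymic epithelial markers summed to at most 6.36, 14.5 and 11.8 CPM, and the 4 erythroid markers found to at most 1.51 CPM. Xist was at 3133 CPM or more in all 3 WT mice but in only 1 Hoil and 1 Sharpin mouse, so sex and genotype were partly confounded. A fit with Xist as a covariate was among the alternatives of the closing section. Among the 2 Hoil and 2 Sharpin mice otherwise without Xist, 1 library, high-fraction of Hoil mouse 2, held 63.6 CPM of it. Results were also fitted without Hoil mouse 2. This drops both libraries of the mouse, so the part of that 1 library alone cannot be told apart.

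Levels of different subunits were compared per length, as RPKM (CPM divided by gene length in kilobases). The members had a median of 52.8 RPKM over the 18 samples, beside 12.3 RPKM over all genes tested, and 55 of 63 were above 10 RPKM. Cox4i1, the ubiquitous form of the regulatory subunit 4 of cytochrome c oxidase, was highest at 262 RPKM. Cox6a1, a peripheral complex IV subunit, followed at 175 RPKM and Ndufa4, counted with complex IV, at 150 RPKM. Median levels were 46.8 RPKM in complex I, 63.3 in complex II, 79.0 in complex III and 87.5 in complex IV.

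**Figure D1:**
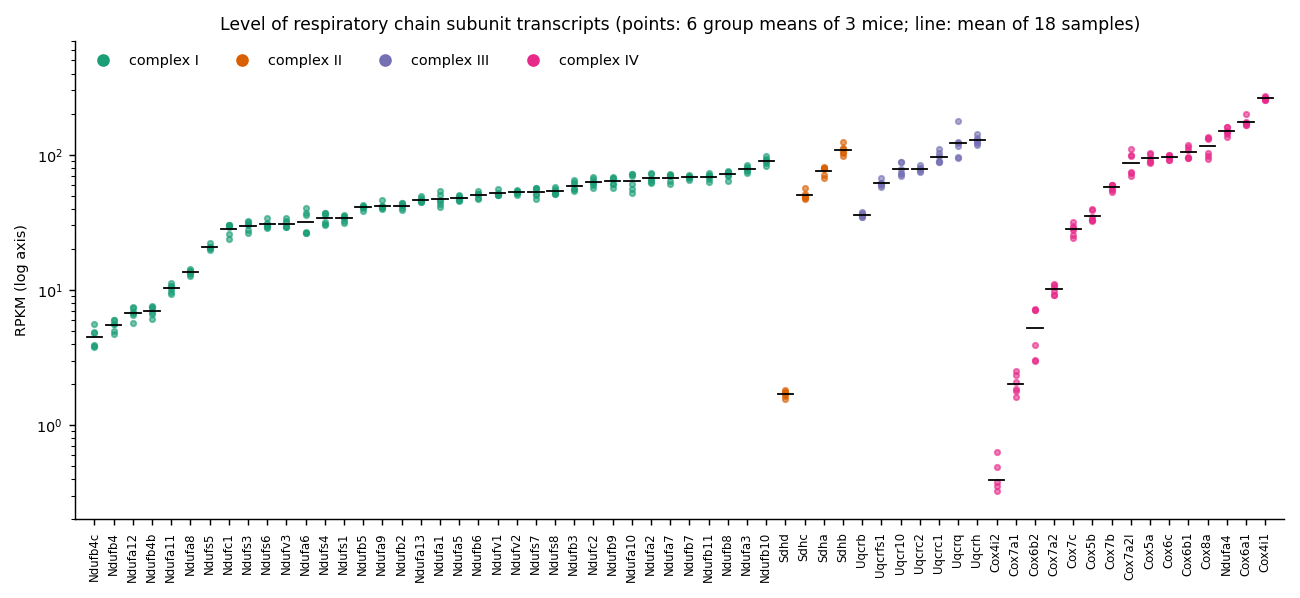
Level of the members, 1 of them not shown, in RPKM on a log axis, grouped and coloured by complex; each point is the mean of 3 mice in 1 of 6 groups and each line the mean of 18 samples. Most members lay above 10 RPKM, with Cox4i1 at 262 RPKM at the top and Cox4i2 at 0.394 RPKM at the bottom.

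The tissue-restricted isoforms were near the bottom of this range. Cox4i2, the lung and low-oxygen form of subunit 4, was just inside the expression filter at 0.394 RPKM, and Cox7a1, the heart and muscle form of subunit 7a, was at 2.03 RPKM. Their ubiquitous counterparts were higher per length, Cox4i1 at 262 RPKM and Cox7a2 at 10.1 RPKM. Cox6b2, known as the testis form of subunit 6b, was at 5.23 RPKM against 105 RPKM for Cox6b1. The muscle forms Cox6a2 and Cox8b, the testis forms Cox7b2 and Cox8c, and Ndufa4l2 failed the filter, reaching 0.5 CPM in no library. They had at most 6 counts in any library, against up to 9 for Cox4i2. Uqcr11 had 0 counts in every library, and whether annotation or counting left its reads out was not tested. Sdhd, a membrane anchor of complex II, was listed at only 1.70 RPKM while its partners Sdha, Sdhb and Sdhc were at 76.4, 109 and 50.3 RPKM. Ndufb4 and the related Ndufb4c, between which the counting may split reads, were at 5.47 and 4.46 RPKM. Of 61 members with annotated transcripts, 8 shared more than 10% of read-length windows with other genes, so their levels are uncertain. Among them were Ndufb4 (35.2%), Uqcrb (29.1%), Ndufs3 (27.1%) and Cox7a2l (13.4%). Genes that overlap a member in position were left out of this count. The gene span of Cox4i2 shares 6308 bases with Bcl2l1, that of Cox7a2 2482 with Tmem30a and that of Ndufb11 263 with Rbm10. The part of such overlaps in the levels was not tested.

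The first question was whether subunit transcripts changed from the low to the high fraction. Together the 63 members made up 0.305% ± 0.00720 (SD, n = 3) of counts in WT low-fraction and 0.320% ± 0.0105 in WT high-fraction libraries. The shares in Hoil mice were 0.307% ± 0.0136 and 0.317% ± 0.00679. In Sharpin mice they were 0.333% ± 0.0200 and 0.321% ± 0.00925. In WT mice the 2 ranges were separate, at 0.297% to 0.310% and 0.313% to 0.332%, whereas in Hoil and Sharpin mice they overlapped. Complex IV made up 0.0706% to 0.0728% of counts in WT low-fraction and 0.0789% to 0.0835% in WT high-fraction libraries, again without overlap. The complex IV ranges of the 2 fractions overlapped in Hoil mice, at 0.0710% to 0.0765% and 0.0762% to 0.0803%, and in Sharpin mice, at 0.0716% to 0.0817% and 0.0745% to 0.0813%. In WT mice the ranges of complexes II and III overlapped. For complex I the highest WT low-fraction and the lowest WT high-fraction library were both at 0.144%, and in the mutants its ranges overlapped. Complex II was separate in both mutants. It was higher in the high fraction in Hoil mice, at 0.0344% to 0.0387% and 0.0390% to 0.0402%. In Sharpin mice it was lower, at 0.0415% to 0.0433% and 0.0386% to 0.0398%. Complex III overlapped in Hoil mice and was lower without overlap in Sharpin mice, at 0.0588% to 0.0660% and 0.0532% to 0.0583%. The mean share of complex III was 0.0551% in WT low-fraction and 0.0545% in WT high-fraction libraries. The 6 DP markers summed to 347 to 355 CPM in WT low-fraction and 204 to 222 CPM in WT high-fraction libraries, while in Hoil mice (384 to 423 and 283 to 447 CPM) and Sharpin mice (271 to 305 and 241 to 331 CPM) the fractions overlapped. The 5 SP markers were higher in the high fraction in each genotype, at 618 to 641 and 1086 to 1156 CPM in WT, 521 to 571 and 935 to 960 CPM in Hoil, and 745 to 756 and 1075 to 1167 CPM in Sharpin mice. Their part in the subunit values was not tested. Bulk RNA cannot tell a change in the number of contributing cells from a change in RNA per cell.

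**Figure D2:**
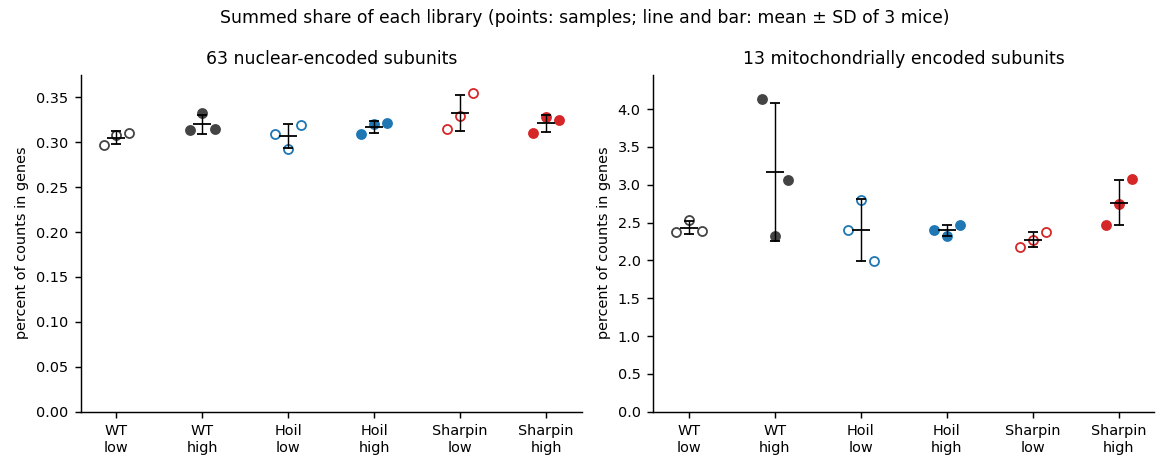
Percent of the counts in genes held by the 63 nuclear-encoded subunits (left) and the 13 mitochondrially encoded subunits (right) in each of 18 samples, with the mean and SD of 3 mice per group; open points are the low fraction, filled points the high fraction. The nuclear-encoded share stayed between 0.292% and 0.354%, while the mitochondrially encoded share ran from 2.00% to 4.14%.

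Single members moved in both directions. In WT mice 15 members rose and 7 fell (limma, adjusted p under 0.05), or 34.9% called where 54.4% of all genes tested were called, 27.5% higher and 26.8% lower. In Hoil mice 10 rose and 6 fell, or 25.4%, beside 45.3% of all genes called, 23.5% higher and 21.7% lower. In Sharpin mice 8 rose and 11 fell, or 30.2%, beside 54.6% of all genes called, 27.2% higher and 27.4% lower. The share called was thus below the background in each genotype. The median log2 fold change of the members was 0.07 in WT, 0.04 in Hoil and -0.01 in Sharpin mice. With 1 mouse left out these medians moved, in WT to 0.05 without mouse 1 and 0.11 without mouse 3, in Hoil to 0.01 without mouse 2 and 0.08 without mouse 1 or 3, and in Sharpin to -0.06 without mouse 1 or 2. The 3 comparisons use separate libraries, and across the 63 members their log2 fold changes had Pearson correlations of 0.801 (WT and Hoil), 0.738 (WT and Sharpin) and 0.772 (Hoil and Sharpin), against 0.884, 0.880 and 0.889 over all genes. Without Cox6b2, which had the largest fall, the 3 correlations over 62 members were 0.683, 0.655 and 0.704, and Spearman's rho over all 63 was 0.646, 0.744 and 0.655. In all, 29 of 63 members were called in at least 1 genotype, beside 70.7% of all genes, and 34 in none. The sign was the same in all 3 genotypes for 40 of 63 members, beside 73.7% of all genes.

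**Figure D3:**
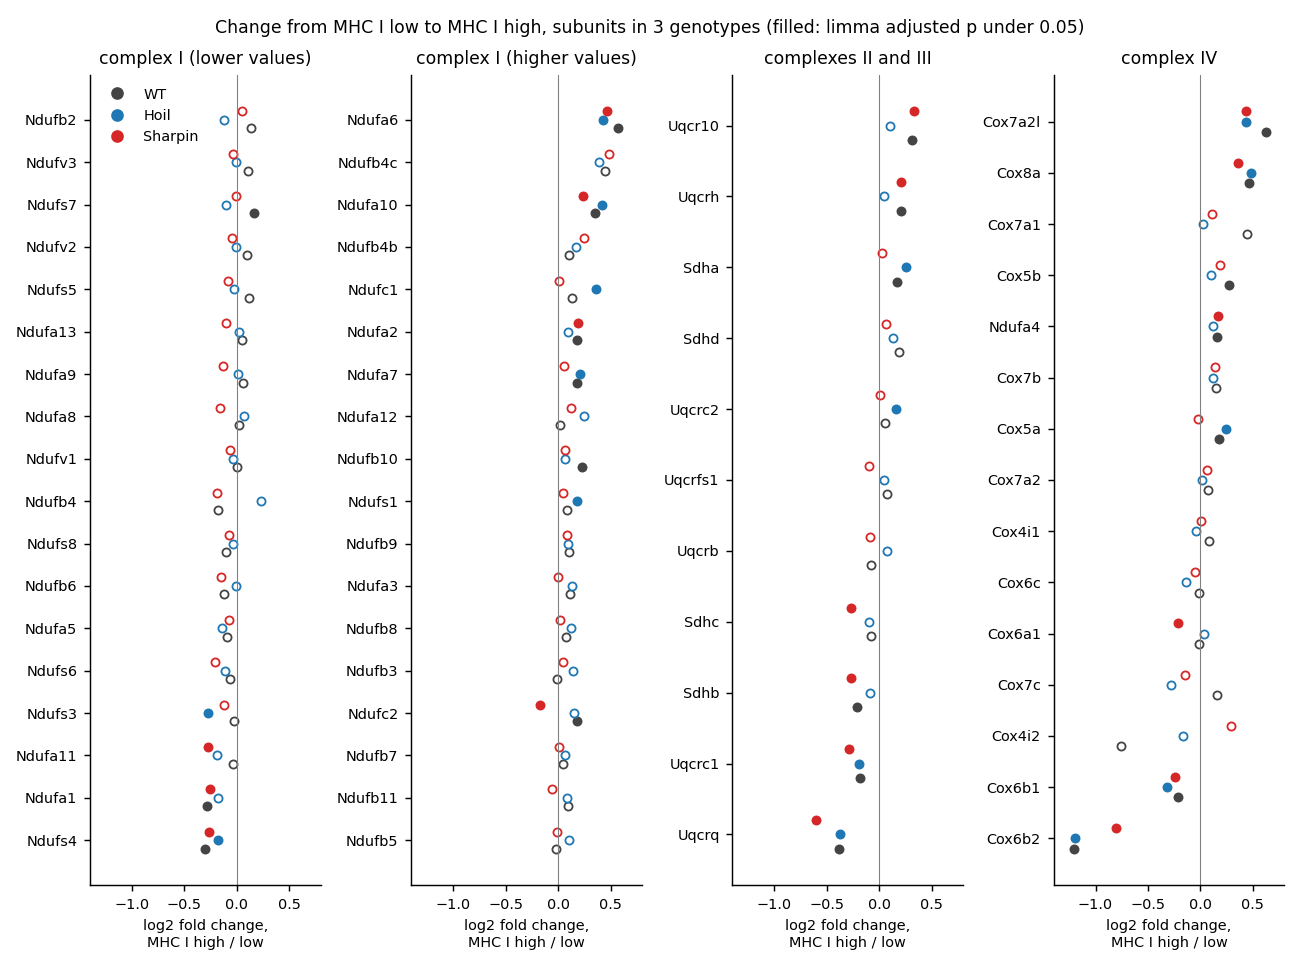
Log2 fold change, high over low fraction, for the members, 1 of them not shown, in WT, Hoil and Sharpin mice, by complex (complex I over 2 panels); filled points passed limma at an adjusted p under 0.05. Cox7a2l, Cox8a, Ndufa6 and Ndufa10 lay to the right and Cox6b2, Cox6b1, Uqcrq, Uqcrc1 and Ndufs4 to the left in all 3 genotypes.

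Higher in all 3 genotypes were 4 members, Cox7a2l, Cox8a, Ndufa6 and Ndufa10, and lower in all 3 were 5, Cox6b1, Cox6b2, Ndufs4, Uqcrc1 and Uqcrq. Over all genes tested 18.1% were called higher and 16.2% lower in all 3 genotypes. Promoter windows (RefSeq, GRCm38.p6, 250 bases before to 50 after the start) are shown for a pair from each direction, to let the letters upstream of members that rose and members that fell be compared. Capitals mark matches on either strand to the NRF1, GABPA (CCGGAAG) or YY1 motif searched, factors known to act at nuclear genes for mitochondrial proteins.
Cox8a, chr19:7217567-7217866, - strand: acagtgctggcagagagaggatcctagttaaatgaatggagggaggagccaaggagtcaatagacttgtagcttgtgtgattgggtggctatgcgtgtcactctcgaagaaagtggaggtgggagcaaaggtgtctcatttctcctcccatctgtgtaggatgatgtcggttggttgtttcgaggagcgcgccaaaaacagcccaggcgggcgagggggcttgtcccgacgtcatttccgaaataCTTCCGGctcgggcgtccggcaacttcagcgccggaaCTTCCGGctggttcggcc
Ndufa6, chr15:82354242-82354541, - strand: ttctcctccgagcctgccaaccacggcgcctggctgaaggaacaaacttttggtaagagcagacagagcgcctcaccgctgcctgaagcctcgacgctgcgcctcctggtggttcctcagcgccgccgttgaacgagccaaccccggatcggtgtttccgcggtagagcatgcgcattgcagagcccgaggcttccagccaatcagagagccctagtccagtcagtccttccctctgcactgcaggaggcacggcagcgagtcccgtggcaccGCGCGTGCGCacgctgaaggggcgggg
Uqcrc1, chr9:108936398-108936697, + strand: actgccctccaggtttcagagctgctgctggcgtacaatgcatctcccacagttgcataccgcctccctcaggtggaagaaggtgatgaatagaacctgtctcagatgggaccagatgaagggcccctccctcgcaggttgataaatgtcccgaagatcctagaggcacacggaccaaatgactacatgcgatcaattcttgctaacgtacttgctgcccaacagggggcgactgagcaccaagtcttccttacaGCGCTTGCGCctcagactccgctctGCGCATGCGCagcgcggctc
Ndufs4, chr13:114388045-114388344, - strand: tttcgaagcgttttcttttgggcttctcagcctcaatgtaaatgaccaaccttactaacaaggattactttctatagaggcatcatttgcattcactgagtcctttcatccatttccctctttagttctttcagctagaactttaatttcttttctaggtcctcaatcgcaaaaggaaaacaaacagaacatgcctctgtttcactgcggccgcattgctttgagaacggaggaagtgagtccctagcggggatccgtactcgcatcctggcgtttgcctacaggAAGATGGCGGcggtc
Cox8a held 2 GABPA matches, Ndufa6 1 NRF1 match, Uqcrc1 2 NRF1 matches and Ndufs4 1 YY1 match, while the windows of Cox7a2l, Ndufa10 and Cox6b2 held none of the 3 and Cox6b1 held GABPA. Uqcrq is not shown. Of 51 members with a window, 11 (21.6%) held NRF1, 10 (19.6%) GABPA and 4 (7.84%) YY1. The shares among 27025 genes with a window were 5.19%, 9.93% and 0.995%, and among 9629 tested protein-coding genes 11.9%, 20.9% and 2.45%. A match is a run of letters, not evidence that the factor was bound.

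Cox7a2l had the largest called rise of any member in WT mice. Its levels were 84.6, 75.3 and 81.8 CPM in WT low-fraction cells of mice 1, 2 and 3, and 122, 134 and 123 CPM in their high-fraction cells. The groups did not overlap, and the log2 fold change was 0.62 ± 0.06 (SE; limma, adjusted p = 1.6e-10). In Hoil mice Cox7a2l went from 88.5, 74.9 and 88.2 CPM to 116, 107 and 118 CPM, and in Sharpin mice from 87.5, 83.9 and 85.0 CPM to 110, 126 and 103 CPM. Both log2 fold changes were 0.43, and it was higher in the high-fraction cells of 9 of 9 mice.

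Cox8a, the ubiquitous form of the smallest complex IV subunit, was 53.6, 48.1 and 51.9 CPM in WT low-fraction cells and 73.1, 78.0 and 67.9 CPM in high-fraction cells. Its log2 fold changes were 0.46 ± 0.06 in WT, 0.48 ± 0.07 in Hoil and 0.36 ± 0.06 in Sharpin mice (SE; limma, adjusted p = 8.6e-08, 2.1e-06 and 1.1e-05), with 9 of 9 mice higher. Other complex IV members rose in fewer genotypes: Cox5a, a core-associated subunit, by 0.18 in WT and 0.25 in Hoil mice, Cox5b by 0.28 in WT mice, and Ndufa4 by 0.16 in WT and Sharpin mice on the log2 scale. Cox5a lost its call without WT mouse 2 (adjusted p = 0.32), WT mouse 3 (0.11) or Hoil mouse 2 (0.057), and Cox5b without WT mouse 1 (0.19) or 3 (0.058). Ndufa4 lost its call in WT mice in 4 of 17 alternatives, by edgeR (0.065) and DESeq2 (0.076) and without mouse 1 (0.10) or 3 (0.12). In Sharpin mice it lost it in 6 of 17, among them edgeR (0.11), DESeq2 (0.13) and leaving out mouse 1 (0.088) or 2 (0.39).

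Cox6b2 had the largest fall of all members, from a low level. In WT mice its CPM was 3.39, 4.48 and 5.01 in low-fraction cells and 1.86, 1.82 and 1.72 in high-fraction cells. The Hoil values were 4.14, 4.84 and 4.14 against 1.44, 2.05 and 2.02, and the Sharpin values 3.38, 3.79 and 5.69 against 2.37, 1.97 and 2.78. The fractions did not overlap in any genotype, and the log2 fold changes were -1.21 ± 0.18, -1.19 ± 0.23 and -0.81 ± 0.19 in WT, Hoil and Sharpin mice (SE; limma, adjusted p = 1.6e-06, 5.8e-05 and 0.00067). Its ubiquitous paralogue Cox6b1 fell as well, by 0.21, 0.32 and 0.24 on the log2 scale, although in WT mice that limma call was lost by edgeR (adjusted p = 0.051) and DESeq2 (0.060) and without mouse 2 (0.061) or mouse 3 (0.28). Cox6a1 fell by 0.22 in Sharpin mice, with values of -0.02 in WT and 0.03 in Hoil mice. The most abundant member, Cox4i1, was 170 to 179 CPM in WT low-fraction and 180 to 191 CPM in WT high-fraction cells, and passed the test in none of the 3 genotypes. Cox7b, a small complex IV subunit on the X chromosome, did not pass either, at 0.15, 0.12 and 0.14.

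**Figure D4:**
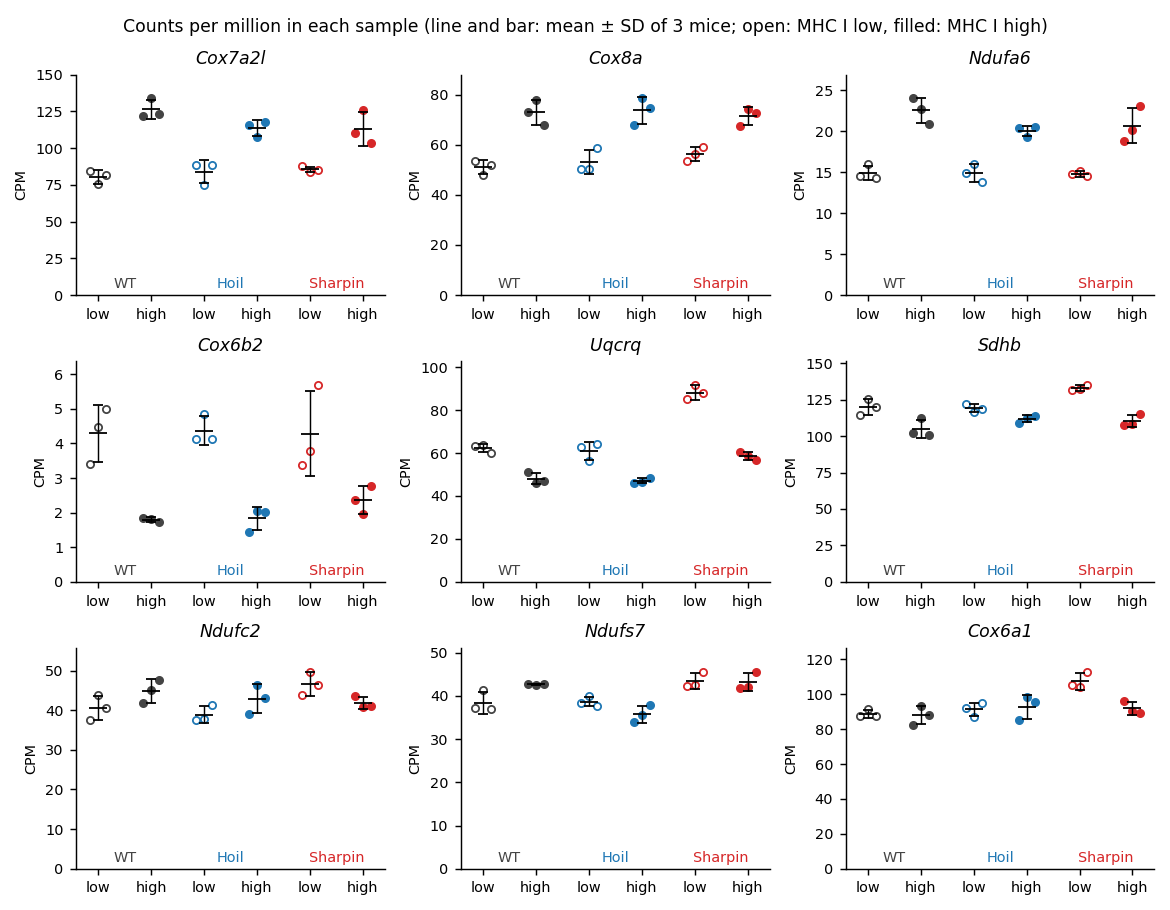
CPM of 9 members in each sample of the 6 groups, with the mean and SD of 3 mice; open points are the low fraction, filled points the high fraction. Cox7a2l, Cox8a and Ndufa6 were higher and Uqcrq was lower in high-fraction cells of every mouse, and Uqcrq was 85.1 to 91.7 CPM in Sharpin low-fraction cells against 60.1 to 63.8 CPM in WT.

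Complex I held 7 members that rose and 2 that fell in WT mice, 5 and 2 in Hoil mice, and 3 and 4 in Sharpin mice, of 37. The shares called were 24.3%, 18.9% and 18.9%, beside 54.4%, 45.3% and 54.6% of all genes. Ndufa6, an accessory subunit of the LYR family, rose from 14.5, 15.9 and 14.3 CPM to 24.0, 22.6 and 20.9 CPM in WT mice. In Hoil mice it was 13.8 to 16.0 CPM in low-fraction and 19.3 to 20.4 CPM in high-fraction cells, and in Sharpin mice 14.5 to 15.2 CPM against 18.8 to 23.1 CPM. The fractions were separate in each genotype, with log2 fold changes of 0.57 ± 0.08, 0.43 ± 0.10 and 0.46 ± 0.09 (SE; limma, adjusted p = 7.5e-07, 0.00077 and 3.7e-05).

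Ndufa10, another accessory subunit, rose by 0.35 in WT, 0.42 in Hoil and 0.24 in Sharpin mice on the log2 scale, and was higher in 9 of 9 mice. The Sharpin call was lost without mouse 1 (adjusted p = 0.058). Ndufs4, an accessory subunit needed for a stable complex and mutated in Leigh syndrome, fell from 55.3, 59.1 and 57.5 CPM to 50.6, 44.4 and 44.8 CPM in WT mice. Its log2 fold changes were -0.31, -0.18 and -0.27 in WT, Hoil and Sharpin mice, and it was lower in 9 of 9 mice. In Hoil mice that limma call was lost in 8 of 17 alternatives, among them edgeR (adjusted p = 0.060), DESeq2 (0.067), the fit without the replicate block (0.081) and leaving out any 1 of the 3 mice (0.078, 0.11 and 0.27). Ndufb10, an accessory subunit of the membrane arm, rose in WT mice from 51.4, 54.0 and 52.8 CPM to 61.9, 62.7 and 60.9 CPM, without overlap and by 0.22 ± 0.06 on the log2 scale (SE; limma, adjusted p = 0.0011). Its values in Hoil and Sharpin mice were 0.07 and 0.06.

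The core subunits Ndufv1 and Ndufs8, which bind the flavin and iron-sulfur clusters of complex I, passed the test in no genotype. Ndufv1, which carries the flavin, had log2 fold changes of 0.00, -0.04 and -0.06 in WT, Hoil and Sharpin mice, with 95% intervals inside -0.17 to 0.11. For Ndufs8 the values were -0.11, -0.04 and -0.07, none of them called. Ndufs7, which carries the last iron-sulfur cluster before ubiquinone, rose by 0.16 in WT mice (limma, adjusted p = 0.019), a call lost in 6 of 17 alternatives, among them edgeR (0.10), DESeq2 (0.12) and leaving out WT mouse 1 (0.18) or 3 (0.26). Ndufs1 rose by 0.18 in Hoil mice, a call lost without mouse 3 (0.11). Ndufs3 fell by 0.28 in Hoil mice, a call lost without mouse 1 (0.084) or 2 (0.065).

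In complex II, which is also succinate dehydrogenase of the citric acid cycle, the flavoprotein and the iron-sulfur subunit moved apart. Sdha, the flavoprotein, was 199, 199 and 207 CPM in WT low-fraction and 221, 240 and 227 CPM in WT high-fraction cells. It rose by 0.17 ± 0.04 in WT and by 0.25 ± 0.05 in Hoil mice on the log2 scale (SE; limma, adjusted p = 0.0014 and 0.00028), and differed by 0.03 in Sharpin mice. Sdhb, its iron-sulfur partner, was 115, 126 and 120 CPM in WT low-fraction and 102, 112 and 101 CPM in high-fraction cells. Sdhb fell by 0.22 in WT and by 0.27 in Sharpin mice (limma, adjusted p = 0.00012 and 1e-05), with -0.09 in Hoil mice, and the membrane anchor Sdhc fell by 0.27 in Sharpin mice. For no complex II member did the difference of these changes from WT pass the test.

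In complex III, Uqcrq, a small subunit at the ubiquinone-binding core, fell in every mouse. Its CPM went from 63.3, 63.8 and 60.1 to 51.0, 46.1 and 46.9 in WT mice, from 62.6, 56.2 and 64.4 to 46.1, 46.7 and 48.4 in Hoil mice, and from 85.1, 91.7 and 87.8 to 60.4, 58.5 and 56.6 in Sharpin mice. The fractions were separate in each genotype, and the log2 fold changes were -0.38 ± 0.05, -0.38 ± 0.06 and -0.60 ± 0.05 (SE; limma, adjusted p = 2.2e-07, 1.2e-05 and 6.3e-11). Uqcrc1, a core protein, fell by 0.18, 0.19 and 0.29, being lower in 8 of 9 mice. That limma call was lost in WT mice by edgeR (adjusted p = 0.071) and DESeq2 (0.080) and without mouse 1 (0.16) or 3 (0.13), and in Hoil mice without mouse 1 (0.11) or 3 (0.17). Other small subunits went the opposite way, since Uqcr10 rose by 0.31 in WT and 0.33 in Sharpin mice and Uqcrh, the hinge protein, by 0.21 in both. In Sharpin mice both calls were lost without mouse 2 (0.064 for Uqcr10 and 0.57 for Uqcrh), that of Uqcrh also by edgeR (0.065) and DESeq2 (0.073), and in WT mice the Uqcrh call was lost without mouse 1 (0.068). The Rieske iron-sulfur protein Uqcrfs1 passed in no genotype, with values of 0.07, 0.04 and -0.10.

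The second question was whether loss of HOIL-1 or SHARPIN altered these transcripts within a fraction. In low-fraction cells no member was called between Hoil and WT (limma), where 0.985% of all genes were called, 0.422% higher and 0.563% lower, and the count was also 0 by edgeR and DESeq2, with 1 member at an unadjusted p under 0.05 by each of the 3. For 55 of the 63 members the 95% interval of the log2 fold change lay within -0.5 to 0.5. In high-fraction cells 1 member, Ndufs7, was called between Hoil and WT, beside 6.65% of all genes, 3.84% higher and 2.81% lower. Its CPM was 33.9, 35.5 and 37.8 in Hoil against 42.8, 42.5 and 42.6 in WT high-fraction cells, with no overlap and a log2 fold change of -0.25 ± 0.07 (SE; limma, adjusted p = 0.025). The call was lost with edgeR (0.051), without sample quality weights (0.059) and without Hoil mouse 1 (0.061) or 2 (0.13) or WT mouse 1 (0.15) or 3 (0.25). Ndufs7 was also lower in Hoil than in Sharpin high-fraction cells, by 0.26 (adjusted p = 0.023), where it was 41.9, 41.9 and 45.5 CPM, a call lost without Hoil mouse 1 (0.069) or 2 (0.11) or Sharpin mouse 2 (0.066) or 3 (0.11). The 6 DP markers summed to 283 to 447 CPM in Hoil high-fraction libraries against 204 to 222 CPM in WT ones, and the 5 SP markers to 935 to 960 against 1086 to 1156 CPM. Their part in the Ndufs7 values was not tested. The comparison of Hoil with Sharpin high-fraction cells had 2 members called, both lower in Hoil, beside 6.73% of all genes, 3.71% higher and 3.02% lower.

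In Sharpin against WT low-fraction cells most subunit values lay slightly higher and few passed the test. Of 63 members 53 had a log2 fold change above 0 and the median was 0.10, beside a median over all genes tested of 0.01. So did 15 of 17 citric acid cycle and pyruvate dehydrogenase genes (median 0.10), 16 of 18 ATP synthase genes (0.07) and 28 of 39 assembly factors (0.09). Of 14 further chain genes 7 were above 0, of 18 regulators of mitochondrial biogenesis 8, and of 13 mitochondrially encoded subunits 2. The members' median was 0.05 without Sharpin mouse 3, 0.06 without WT mouse 1 and 0.16 without Sharpin mouse 1. Of the 63, 4 were called, all higher, where 12.2% of all genes were called, 5.31% higher and 6.92% lower. The ranges of the 3 mice were separate for 19 of 63 members, a share near the 30.0% of all genes with separate ranges in either direction. All 19 were higher in Sharpin. The shares of all genes with separate higher ranges, or with a value above 0, were not counted. In the comparison of Hoil with WT in the same fraction 3 members had separate ranges, beside 14.7% of all genes. The Sharpin and Hoil comparisons share the WT libraries. The 8 thymocyte markers were also higher in Sharpin than in WT low-fraction libraries, at 4477 to 4851 against 4072 to 4243 CPM, as were the 5 SP markers, at 745 to 756 against 618 to 641 CPM, while the 6 DP markers were lower, at 271 to 305 against 347 to 355 CPM. Their part in the subunit values was not tested.

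**Figure D5:**
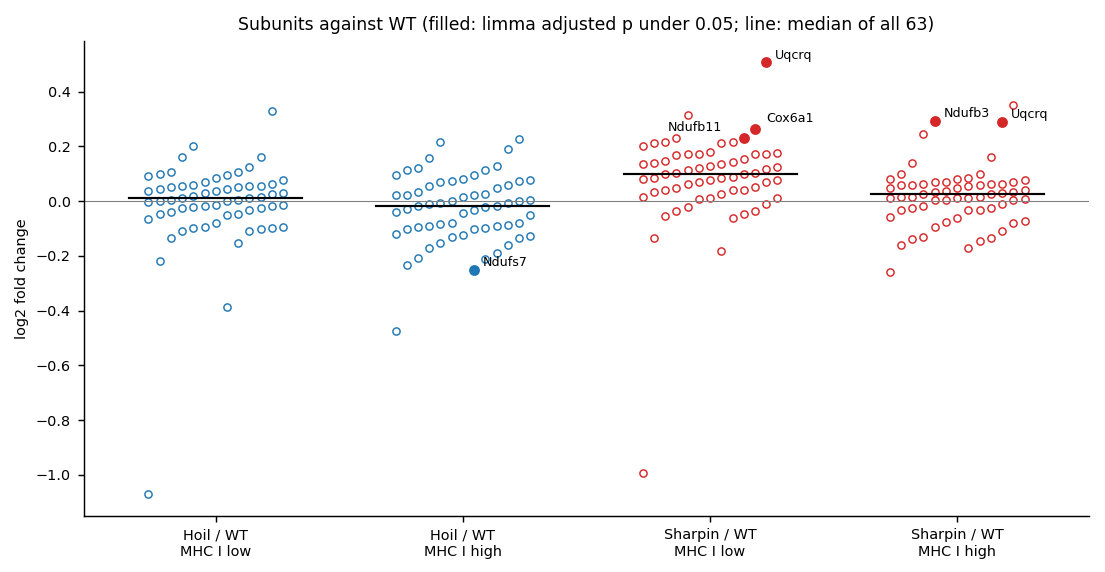
Log2 fold change of the members, 1 of them not shown, in Hoil or Sharpin cells against WT cells of the same fraction; filled, named points passed limma at an adjusted p under 0.05 and lines mark medians of all 63. The Sharpin low-fraction column sits above 0 with its median at 0.10, and the lowest point in both low-fraction columns is Cox4i2, at 9 or fewer counts in every library.

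Uqcrq had the smallest adjusted p of the 4. It was 85.1, 91.7 and 87.8 CPM in Sharpin and 63.3, 63.8 and 60.1 CPM in WT low-fraction cells, a log2 fold change of 0.51 ± 0.06 (SE; limma, adjusted p = 1.6e-06). In high-fraction cells it was 60.4, 58.5 and 56.6 CPM against 51.0, 46.1 and 46.9 CPM, or 0.29 ± 0.06 (adjusted p = 0.0010). The groups did not overlap in either fraction. The call in high-fraction cells was lost without WT mouse 3 (0.074). Hoil and WT values overlapped in both fractions, and Uqcrq was lower in Hoil than in Sharpin cells by 0.53 in low-fraction and 0.31 in high-fraction cells (adjusted p = 8.5e-06 and 0.0022). Uqcrq lies on chromosome 11 at 53427922 to 53430831 (GRCm38.p6), and its span shares 58 bases with Gdf9, whose reads cannot be told apart there without strand.

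Cox6a1 and Ndufb11, an accessory complex I subunit on the X chromosome, were also called in Sharpin low-fraction cells. Cox6a1 was 105, 104 and 113 CPM in Sharpin and 87.4, 91.4 and 87.8 CPM in WT cells, a log2 fold change of 0.26 ± 0.06 (SE; limma, adjusted p = 0.0041) that held under each alternative tried. Ndufb11 was higher by 0.23, at the edge of the threshold, and lost its call in 14 of 17 alternatives, with adjusted p between 0.0098 and 0.22 over all of them. In high-fraction cells 2 members were called against WT, Uqcrq and Ndufb3, both higher in Sharpin, beside 8.62% of all genes, 4.15% higher and 4.47% lower. Ndufb3, an accessory complex I subunit, was 33.1, 34.2 and 36.7 CPM against 28.0, 33.5 and 27.1 CPM, a log2 fold change of 0.29 (limma, adjusted p = 0.015). That call was lost in 8 of 17 alternatives, by edgeR (0.17) and DESeq2 (0.20), without the filter on low counts (0.060), without sample quality weights (0.16), and without Sharpin mouse 2 (0.077) or 3 (0.11), or WT mouse 1 (0.28) or 3 (0.50).

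Hoil and Sharpin low-fraction cells differed in 3 members, all lower in Hoil, beside 9.48% of all genes, 5.12% higher and 4.36% lower. They were Uqcrq, Cox6a1 by 0.21 and Sdha by 0.20 on the log2 scale (limma, adjusted p = 0.045 and 0.038). The Cox6a1 call was lost in 10 of 17 alternatives, with adjusted p up to 0.14. The Sdha call was lost without Hoil mouse 1 (0.088) or 2 (0.19), without any 1 of the Sharpin mice (0.099, 0.078 and 0.068) and without WT mouse 3 (0.051).

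The last comparison asked whether the change between fractions itself differed from WT. For Hoil no member was called by limma, edgeR or DESeq2, with 5 members at an unadjusted p under 0.05 by limma and 3 by each of the other tools, beside 0.398% of all genes called by limma, 0.297% higher and 0.102% lower. For Sharpin 1 member was called, Ndufc2, a membrane subunit of complex I, beside 3.13% of all genes, 2.2% higher and 0.93% lower. Ndufc2 was 37.6, 43.7 and 40.4 CPM in WT low-fraction and 41.8, 45.0 and 47.7 CPM in WT high-fraction cells, a rise of 0.18. In Sharpin mice it was 43.9, 49.7 and 46.3 CPM and then 43.5, 40.9 and 41.0 CPM, a fall of 0.17, and the difference between these changes was -0.36 ± 0.09 (SE; limma, adjusted p = 0.029). The call was lost in 11 of 17 alternatives, among them leaving out WT mouse 1 (0.078), 2 (0.061) or 3 (0.29) or Sharpin mouse 2 (0.22) or 3 (0.14), and edgeR (0.28) and DESeq2 (0.27). The rise in WT mice itself was lost in 7 of 17 alternatives, among them without WT mouse 1 (0.16) or 3 (0.43), and the fall in Sharpin mice in 8 of 17, among them without Sharpin mouse 2 (0.44) or 3 (0.17). For Uqcrq the same difference was -0.22 ± 0.07 (adjusted p = 0.11).

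The rest of the energy metabolism machinery was read beside the subunits. Between fractions 54.4%, 45.3% and 54.6% of all genes were called in WT, Hoil and Sharpin mice, and list shares follow in that order. Of 13 mitochondrially encoded subunits 8 rose in WT mice, 0 were called in Hoil mice (limma; 0 at an unadjusted p under 0.05, and 10 intervals within -0.5 to 0.5) and 2 rose in Sharpin mice, with medians of 0.36, 0.01 and 0.25. Their shares called were 61.5%, 0% and 15.4%. The WT high-fraction libraries spread widely, at 4.14%, 2.32% and 3.06% of counts in mice 1, 2 and 3. Their range overlapped that of the WT low-fraction libraries, at 2.38%, 2.53% and 2.39%, and mouse 2 was lower in the high fraction. For none of these genes was the change between fractions called different from WT in Hoil or Sharpin mice. Within high-fraction cells all 13 lay below WT in both mutants, with medians of -0.40 in Hoil and -0.21 in Sharpin. Of the 13, 0 were called in Hoil (limma, 10 at an unadjusted p under 0.05) and 1 in Sharpin, beside 6.65% and 8.62% of all genes. Among 18 ATP synthase genes 5 rose and 2 fell in WT mice, 3 and 1 in Hoil mice and 1 and 7 in Sharpin mice. That was 38.9%, 22.2% and 44.4% called. Among 14 further respiratory chain genes outside the rule 5 rose and 2 fell in WT, 3 and 1 in Hoil and 4 and 1 in Sharpin mice. That was 50%, 28.6% and 35.7% called. Among 39 tested assembly factors 12 rose and 7 fell in WT, 6 and 6 in Hoil and 7 and 10 in Sharpin mice. That was 48.7%, 30.8% and 43.6% called. Among 17 genes of the citric acid cycle and pyruvate dehydrogenase 5 rose and 3 fell in WT, 5 and 2 in Hoil, and 5 and 7 in Sharpin mice. That was 47.1%, 41.2% and 70.6% called.

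Regulators of mitochondrial biogenesis and mitochondrial DNA moved in both directions. Of 18 tested genes of 19 listed 3 rose and 9 fell in WT, 2 and 7 in Hoil and 7 and 9 in Sharpin mice. The shares called were 66.7%, 50% and 88.9%, beside 54.4%, 45.3% and 54.6% of all genes. Nrf1 fell by 0.27, 0.26 and 0.22, Gabpb1, a partner of GABPA, by 0.44, 0.34 and 0.48, and Polg, the mitochondrial DNA polymerase, by 0.80, 0.90 and 1.00 on the log2 scale. Tfam, which packages mitochondrial DNA, rose by 0.27 in WT and Sharpin mice. All 18 cell cycle genes rose in each genotype, with medians of 1.69, 2.05 and 2.50, and in high-fraction cells 17 were higher in Hoil and 13 in Sharpin than in WT. Those 17 and 13 were 94.4% and 72.2%, beside 6.65% and 8.62% of all genes called in either direction. The part of cell cycle activity in the subunit values was not tested.

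Nnt and Lyrm7, outside the rule, were among listed genes called between genotypes, picked after their values were seen. Of 39 assembly factors 4 (10.3%) were called between Sharpin and WT low-fraction cells, 3 higher and 1 lower, beside 12.2% of all genes. In high-fraction cells 2 (5.13%) were called in Sharpin and 3 (7.69%) in Hoil, beside 8.62% and 6.65%. Of 14 further chain genes 1 was called in each mutant in low-fraction cells, beside 0.985% in Hoil and 12.2% in Sharpin. High-fraction cells had 1 called in Hoil and 2 in Sharpin. Nnt, the proton-translocating transhydrogenase on chromosome 13, was 39.5 to 47.8 CPM in WT, 52.0 to 63.8 CPM in Hoil and 80.4 to 83.0 CPM in Sharpin low-fraction cells. The 3 groups did not overlap, and Nnt was higher than in WT by 0.48 in Hoil and by 0.94 in Sharpin cells (limma, adjusted p = 0.00063 and 1.7e-10). Background and mutation cannot be told apart in Sharpin mice, and the part of background in the Hoil value was not tested. Lyrm7, a complex III assembly factor, was 4.99, 3.90 and 6.65 CPM in WT and 14.1, 15.1 and 16.8 CPM in Sharpin low-fraction cells, a log2 fold change of 1.55 (limma, adjusted p = 7.7e-08). In high-fraction cells the difference was 0.87 (adjusted p = 0.00018), and Lyrm7 was lower in Hoil than in WT high-fraction cells by 0.54 (adjusted p = 0.037). Lyrm7 lies on chromosome 11 at 54826866 to 54860921 (GRCm38.p6), the chromosome of Uqcrq.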

How the data were processed

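RNA from sorted thymocytes of 9 mice was sequenced by the authors as single-end reads, aligned to mm10 with subread and counted per gene with featureCounts (built-in RefSeq annotation; its settings for strand and for reads with several hits are not given in the sources used here). The deposited files hold these counts, whole numbers and not normalized, with each gene's length. The 18 files of single samples equalled the table of the whole series, which was not used. Of 27179 genes, 25275 matched RefSeq (GRCm38.p6), and the 1904 without a match held 0.655% of counts.

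After the study's methods, the filter of 0.5 CPM or more in 3 or more samples was applied, without chromosome Y, Xist, predicted genes and genes with no symbol. TMM scaling (edgeR 4.0.16), log2 CPM with a prior count of 1, sample quality weights, mouse as random block and an empirical Bayes fit with trend (limma 3.58.1, R 4.3.3) gave two-sided p-values, adjusted by Benjamini-Hochberg over 12798 genes and called under 0.05. The low and high fractions of a number came from 1 mouse. Their deviations correlated at 0.0702 to 0.256 over the 9 mice, and the block's estimated correlation was 0.224. CPM and RPKM in the text use TMM-scaled library sizes. DESeq2 1.42.0, edgeR's quasi-likelihood test and the other alternatives are in the closing section. Scripts were tested on simulated data. Replicates are separate mice, and counts cover sampling of reads only.

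The members and gene lists were chosen with earlier results of these data known. Genes named are those called in a comparison (up to 6 per direction by p), fixed core and isoform subunits, the 3 highest and 3 lowest members, and Rbck1, Sharpin and H2-K1. Sdhc in levels, Ndufb4, Nnt, Lyrm7, Nrf1, Gabpb1, Polg and Tfam were named after their values were seen. The values of 1 member are not reported here, although it is in every count.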

Additional observations from a re-analysis of the deposited data

Results flagged for a closer look

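Ndufc2 is the one subunit whose change between fractions was called different from WT. Its log2 fold change, high over low fraction, was 0.18 in WT and -0.17 in Sharpin mice, and the test of the difference itself gave -0.36 (limma, adjusted p = 0.029). In mice 1, 2 and 3 the log2 change was 0.15, 0.04 and 0.24 in WT and -0.01, -0.28 and -0.18 in Sharpin. WT mouse 2 and Sharpin mouse 1 thus hardly changed. The difference passed in 6 of 17 alternatives, with adjusted p between 0.023 and 0.29. Groups of 3 were too small for the search for a sample far from the rest of its group.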

How the results depend on the processing

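The number of members called between fractions in WT mice was 22, against 14 by edgeR and 14 by DESeq2, and 13 to 22 when 1 mouse was left out, with 13 without WT mouse 1. In Hoil mice it was 16 (11 to 16 with 1 mouse left out) and in Sharpin mice 19 (15 to 19). Between Hoil and WT the count in the low fraction was 0 under each of 17 alternatives, and in the high fraction it went from 1 to 0 by edgeR and 0 without sample quality weights, and was 0 to 1 with 1 mouse left out. Between Sharpin and WT it was 2 to 5 in the low fraction with 1 mouse left out, against 4, with 2 without Sharpin mouse 3 or WT mouse 1. In the high fraction it was 2, against 1 by edgeR, 1 by DESeq2, 1 without the filter on low counts and 1 without sample quality weights, and 0 to 2 with 1 mouse left out, with 0 without WT mouse 3. Between Hoil and Sharpin in the low fraction it was 3, against 5 by edgeR, 5 by DESeq2 and 6 without sample quality weights, and 1 to 4 with 1 mouse left out, with 1 without Hoil mouse 1 or 2, Sharpin mouse 2 or 3, or WT mouse 3, and in the high fraction 1 to 2. The 1 member whose fraction change differed between Sharpin and WT became 0 by edgeR, DESeq2, without the filter, without the weights, without the replicate block and with replicate number as a fixed replicate block, and was 0 to 1 with 1 mouse left out. The cause of these shifts was not tested. In the main fit the sample quality weights of the WT high-fraction libraries were 0.963, 0.642 and 2.42 for mice 1, 2 and 3. Over all libraries the weights ran from 0.628 to 2.42.

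Without the replicate block for the mouse the counts between fractions were 22 in WT, 12 in Hoil and 18 in Sharpin mice, and with replicate number as a fixed replicate block 18, 13 and 17. Across genotypes the numbers only name mice, and same-numbered mice correlated at -0.0314 to 0.153. Of 61 named calls 34 were kept under all 17 alternatives and 0 reversed. Xist was a covariate in 1 of the 17. Under it Uqcrq and Cox6a1 kept their calls in Sharpin against WT low-fraction cells. Low counts limit Cox4i2, at 9 or fewer counts per library.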
